A study of Rattus norvegicus with 8 samples.

Results

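The class II genes of the rat major histocompatibility complex, RT1, and the gene of their invariant chain were followed in immune cells of rat liver. The 7 genes were taken by symbol from the 32754 genes in the files: RT1-Ba, RT1-Bb, RT1-Da, RT1-Db1, RT1-DMa, RT1-DMb and Cd74. All 7 were found in every library. RT1-DMa and RT1-DMb each have 2 Ensembl identifiers, and their counts were summed for the levels. The animals were 4 male Han Wistar rats. A choline-sufficient diet of defined l-amino acids (CSAA) was given to NC1 and NC2, and its choline-deficient counterpart (CDAA) to PC1 and PC2. Liver immune cells were enriched by filtration, lysis of erythrocytes and a density gradient, and were run on the 10x Chromium system, which counts unique molecular identifiers (UMIs) at the 3' end of transcripts. One part of the cells of each rat was run fresh and another after DMSO cryopreservation and 3 weeks of storage, giving 8 libraries. Age and time on diet were not given in the sources used here.

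Class II molecules present peptides from endocytosed material to helper T cells. RT1-Ba and RT1-Bb encode the alpha and beta chains of RT1-B, and RT1-Da and RT1-Db1 those of RT1-D. Cd74, the invariant chain, blocks the binding groove of new class II molecules and guides them to endosomes, where cathepsins and legumain degrade it. RT1-DMa and RT1-DMb encode the DM heterodimer, which exchanges the remaining Cd74 fragment for other peptides. Dendritic cells, B cells and macrophages are the classical class II-bearing cells, the gene set is switched on by the coactivator Ciita, and Kupffer cells are the resident macrophages of the liver.

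The promoters are shown because the proximal elements through which Ciita acts on these genes have a known order, an X box followed by a Y box that contains an inverted CCAAT sequence. RefSeq promoter sequences (assembly GRCr8, 250 bases before to 50 after the gene start) were at hand for 6 of the 7 genes, not for RT1-DMb. The lines run 5' to 3' on the strand of the gene, and capitals mark GNNACNG, a shortened X box, and TGATTGG, a shortened Y box. Both motifs were chosen after these sequences had been seen. GRCr8 is not the build to which the reads were aligned.

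RT1-Ba, chr20:4576961-4577038 (+): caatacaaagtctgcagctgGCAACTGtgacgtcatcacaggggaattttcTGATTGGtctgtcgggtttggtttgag
RT1-Bb, chr20:4604155-4604231 (-): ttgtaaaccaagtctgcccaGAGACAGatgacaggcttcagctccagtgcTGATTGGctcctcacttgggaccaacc
RT1-Da, chr20:4515313-4515390 (+): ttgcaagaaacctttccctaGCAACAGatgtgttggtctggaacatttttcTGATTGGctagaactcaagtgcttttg
RT1-Db1, chr20:4560218-4560294 (-): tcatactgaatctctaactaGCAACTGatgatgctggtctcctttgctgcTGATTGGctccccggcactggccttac
RT1-DMa, chr20:4712375-4712452 (-): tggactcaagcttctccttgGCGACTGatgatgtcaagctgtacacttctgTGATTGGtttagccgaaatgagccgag

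In RT1-Ba, RT1-Da and RT1-DMa the first motif began 31 bases before the second, and in RT1-Bb and RT1-Db1 it began 30 bases before it. The second motif began 45 (RT1-Ba), 51 (RT1-Da), 63 (RT1-Bb), 66 (RT1-DMa) and 82 (RT1-Db1) bases before the gene start. Searched on both strands, the pair in this order, with 20 to 45 bases from start to start, was in 5 of the 6 promoters at hand and in 0.774% of all 33469 promoters of the table (259 promoters). TGATTGG alone was in the same 5 and in 7.06% of all promoters. The Cd74 promoter did not hold the pair in this window. A miss of these shortened motifs does not tell whether it lacks the boxes. ATTGG on either strand, which TGATTGG contains, was in 6 of 6 and in 37.5% of all promoters, and GNNACNG alone was in 6 of 6 and in 88.1%. A match describes letters and is not a measured binding site.

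Barcodes with at least 500 UMIs were taken as cells, which gave 3673 to 4771 cells per library at medians of 3339 to 4309 UMIs per cell. Library totals were 18338700 to 26471843 UMIs, and pairs of libraries shared 13 to 36 cell barcodes over the 28 pairs. Lineages were first gated by 1 gene each (Clec4f, Clec4a3, Vcan, Siglech, Cd79a, Cd3e, Ncr1 or Flt3) with the remaining gate genes at 0 UMIs. As exceptions, Clec4a3 was allowed in the Clec4f and Vcan gates and Flt3 in the Siglech gate. The Flt3 gate held 2 to 9 cells per library and was not used. After this was seen, a second assignment was added, in which a cell joined the group whose marker list had the highest mean score. It uses none of the 7 genes. In these groups 9 of 9 Kupffer markers, 7 of 7 Clec4a3 myeloid, 7 of 7 classical monocyte, 8 of 8 plasmacytoid dendritic, 7 of 7 B, 8 of 8 T, 7 of 7 NK and 9 of 11 conventional dendritic markers found in the files were at least 2-fold higher than in the remaining cells. The groups were built from these same markers, so this rise follows in part from the assignment and is no independent check of it. Levels are CPM, the UMIs of a gene per 1000000 UMIs of the group in a library. The summed conventional dendritic list was nevertheless higher in plasmacytoid dendritic-like cells (1379 to 1778 CPM) than in conventional dendritic-like cells (1224 to 1594 CPM). Between 33.2% and 45.8% of the cells of a library joined no group. Groups are named after their lists (Kupffer-like and so on). UMIs at the 3' end carry no length scale, so levels were compared between groups and libraries and not between genes.

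Cd74, the most counted of the 7 genes with 114913 to 179556 UMIs per library, was highest in conventional dendritic-like cells, followed by B-like, Kupffer-like and plasmacytoid dendritic-like cells, in this order in 8 of 8 libraries. In fresh conventional dendritic-like cells Cd74 was at 18067, 16737, 18227 and 17003 CPM (animals in the order NC1, NC2, PC1 and PC2), and in preserved ones at 17293, 16808, 16894 and 17401. In fresh B-like cells it was at 15781, 15268, 16542 and 15087 in the same animals, and after preservation at 16007, 16217, 16528 and 16684. Both groups varied by little between libraries, and no B-like value reached the lowest conventional dendritic-like value.

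Kupffer-like cells followed with Cd74 at 14420, 11691, 14100 and 11042 CPM in fresh NC1, NC2, PC1 and PC2, and 11616, 10883, 12596 and 11125 in the preserved libraries of these animals. Plasmacytoid dendritic-like cells were at 11158, 10142, 10856 and 8160 fresh and at 10837, 9996, 10721 and 9044 preserved. These ranges overlapped between libraries, but within each library the Kupffer-like value of Cd74, summed over cells, was the higher one. The fresh Cd74 means were 17509 ± 748 in conventional dendritic-like, 15670 ± 652 in B-like, 12813 ± 1696 in Kupffer-like and 10079 ± 1348 in plasmacytoid dendritic-like cells (SD, n = 4 animals).

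In the remaining groups Cd74 was lower. The fresh means were 4815 ± 706 in Clec4a3 myeloid-like cells, which carry markers of non-classical monocytes, 4789 ± 1171 in classical monocyte-like, 3496 ± 449 in T-like and 3074 ± 580 in NK-like cells. Clec4a3 myeloid-like cells exceeded classical monocyte-like cells in Cd74 in 5 of 8 libraries, with a fresh log2 difference of 0.03 ± 0.18, so these neighbours did not differ beyond their spread. Between plasmacytoid dendritic-like and Clec4a3 myeloid-like cells lay the widest step between neighbours in Cd74, a log2 difference of 1.07 ± 0.12 in fresh cells with the same sign in 8 of 8 libraries. These differences between marker-based groups are descriptions and carry no test.

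**Figure D1:**
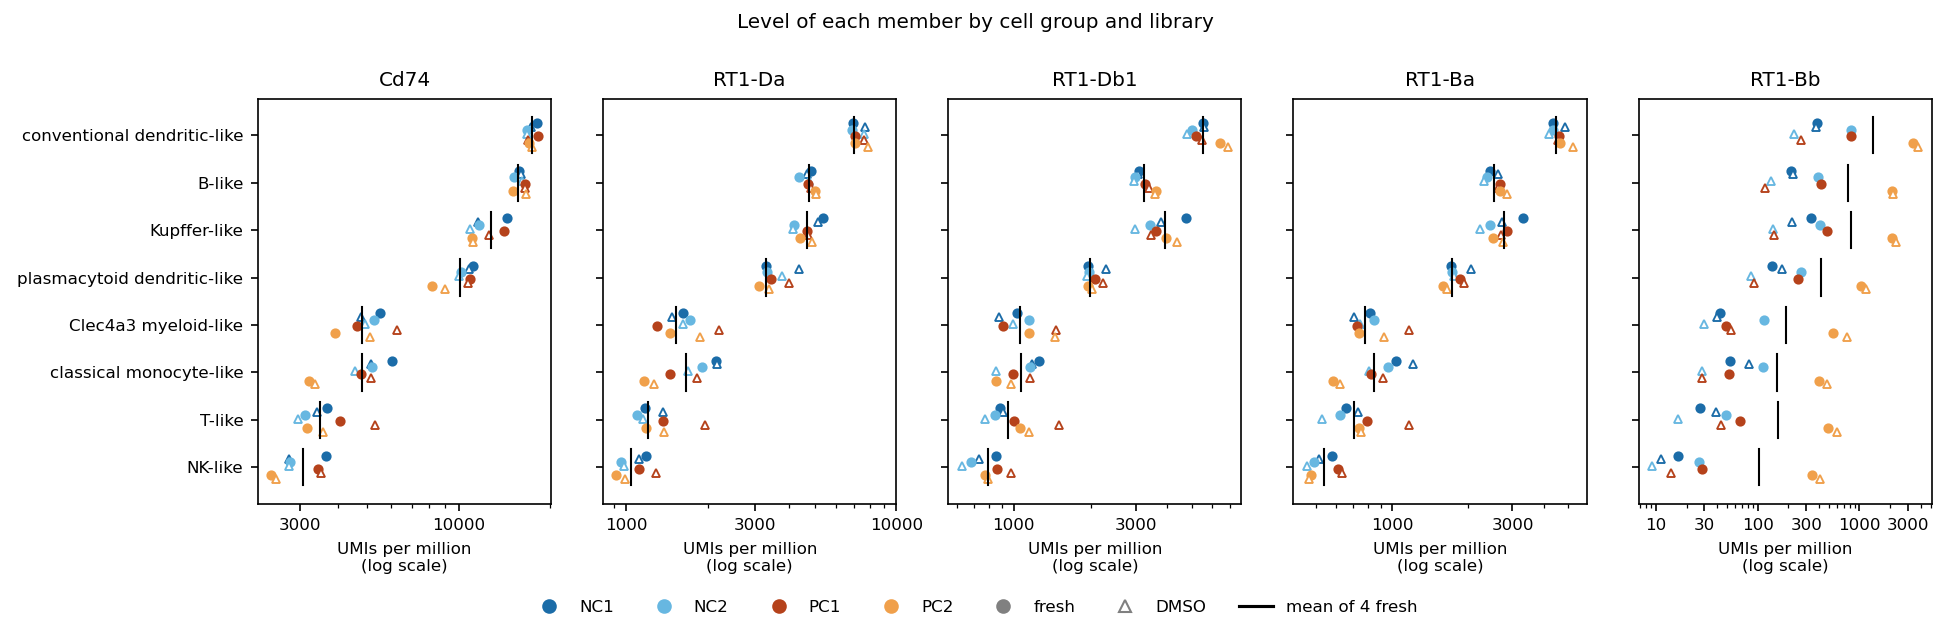
Levels of RT1-Ba, RT1-Bb, RT1-Da, RT1-Db1 and Cd74 in CPM (log scale) in 8 marker-based groups, with 1 point per library, colour for the animal, filled circles for fresh and open triangles for DMSO libraries and a black line at the mean of the 4 fresh libraries. Conventional dendritic-like cells were highest in 8 of 8 libraries for each gene, and the RT1-Bb points of PC2 lie above those of the other animals in every group.

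RT1-Da, the alpha chain of RT1-D, was at 6892, 6844, 7042 and 7022 CPM in fresh conventional dendritic-like cells of NC1, NC2, PC1 and PC2, and at 7685, 7593, 7581 and 7863 after preservation. In fresh Kupffer-like cells RT1-Da was at 5342, 4167, 4686 and 4414, and in preserved ones at 5129, 4157, 4692 and 4851. In fresh B-like cells it was at 4831, 4376, 4694 and 5017, and in preserved ones at 4665, 4753, 4837 and 5040. The Kupffer-like and B-like values of RT1-Da overlapped, with B-like cells higher in 6 of 8 libraries and a fresh log2 difference of 0.03 ± 0.14. Plasmacytoid dendritic-like cells were lower than both, at 3290 ± 139 fresh, and Clec4a3 myeloid-like cells were at 1521 ± 186.

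RT1-Db1, the beta chain of RT1-D, gave another order. In Kupffer-like cells RT1-Db1 was at 4736, 3405, 3603 and 3958 CPM in fresh NC1, NC2, PC1 and PC2 and at 3769, 2998, 3457 and 4362 in the preserved libraries. In B-like cells it was at 3099, 2997, 3265 and 3599 fresh and 3070, 2954, 3373 and 3559 preserved. Kupffer-like cells were the higher of the 2 groups in 8 of 8 libraries (fresh log2 difference of B-like minus Kupffer-like cells, -0.27 ± 0.23), whereas for Cd74 B-like cells were higher in 8 of 8. Conventional dendritic-like cells exceeded both, with RT1-Db1 at 5516 ± 639 in fresh libraries.

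RT1-Ba, the alpha chain of RT1-B, was at 4333, 4335, 4593 and 4623 CPM in fresh conventional dendritic-like cells of NC1, NC2, PC1 and PC2, and at 4849, 4177, 4558 and 5227 after preservation. Kupffer-like cells had RT1-Ba at 3298, 2447, 2857 and 2514 fresh and 2719, 2222, 2712 and 2757 preserved. B-like cells had 2454, 2386, 2668 and 2674 fresh and 2617, 2309, 2627 and 2845 preserved. The last 2 groups overlapped, and B-like cells were higher in 3 of 8 libraries (log2 difference -0.12 ± 0.22). Plasmacytoid dendritic-like cells were the fourth group for RT1-Ba in 8 of 8 libraries, at 1720 ± 104 fresh.

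The class II chains and Cd74 therefore did not keep the same ratio in each group. RT1-Ba was at 25.6 ± 1.34% of the Cd74 count in fresh conventional dendritic-like cells and at 21.7 ± 1.31% in Kupffer-like cells, against 16.3 ± 1.01% in B-like and 17.2 ± 1.75% in plasmacytoid dendritic-like cells. RT1-Db1 was at 31.6 ± 4.21% and 30.8 ± 4.47% of Cd74 in the first pair of groups and at 20.7 ± 2.09% and 20.0 ± 2.78% in the second. For RT1-Da the values were 39.7 ± 1.58% in conventional dendritic-like, 36.5 ± 2.82% in Kupffer-like and 30.2 ± 2.25% in B-like cells. Relative to Cd74, B-like cells thus held fewer UMIs of each of these chains than conventional dendritic-like or Kupffer-like cells.

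RT1-DMa and RT1-DMb had few UMIs in these libraries. RT1-DMa was at 0.0627 to 0.394 CPM over all cells, with 0 to 4 and 0 to 6 UMIs per library for its 2 identifiers. RT1-DMb was at 2.81 to 5.21 CPM, with 18 to 54 and 30 to 85 UMIs. At these counts no order of the groups was read for either gene. The part of depth, and of the 2 identifiers of each gene, in these low counts was not tested. RT1-DMa was left out of the tests by the filter for low counts.

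The 5 abundant genes (RT1-Ba, RT1-Bb, RT1-Da, RT1-Db1 and Cd74) together made up 1.15% to 1.48% of all UMIs of a library. Their share was 3.36% to 4.12% in conventional dendritic-like, 2.54% to 3.02% in B-like, 2.04% to 2.81% in Kupffer-like, 1.58% to 1.97% in plasmacytoid dendritic-like and 0.483% to 0.643% in NK-like cells. Conventional dendritic-like cells were 0.925% to 1.66% of the cells of a library (38 to 72 cells) and held 6.39% to 10.3% of the UMIs of the 5 genes. Plasmacytoid dendritic-like cells, at 7.83% to 13.4% of cells, held 16.6% to 30.1%. Cells that joined no group held 27.0% to 35.5%.

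Single cells of a group differed in this share. In Kupffer-like cells the median cell had 0.741% to 1.94% of its UMIs from the 5 genes, depending on the library, while the 95th percentile was 5.69% to 7.66%. In B-like cells the median was 2.85% to 3.43% and the 95th percentile 3.97% to 4.80%. The median was 2.41% to 4.25% in conventional dendritic-like and 1.45% to 2.04% in plasmacytoid dendritic-like cells. The order of groups given above rests on UMIs summed over cells, in which deep cells weigh more. By median cell, conventional dendritic-like and B-like ranges overlapped. Plasmacytoid dendritic-like and Kupffer-like ranges overlapped as well, with both ends higher in plasmacytoid dendritic-like cells. Above 3% were 22.4% to 37.8% of Kupffer-like, 43.1% to 63.6% of conventional dendritic-like, 39.9% to 69.9% of B-like and up to 0.157% of NK-like cells. The Kupffer-like spread was therefore wide around a low median, and the B-like spread narrow. Median depth also differed, with 4731 to 13599 UMIs per Kupffer-like, 9381 to 14088 per conventional dendritic-like and 2401 to 3267 per B-like cell. The part of depth in the spread and in the order of the groups was not tested.

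**Figure D2:**
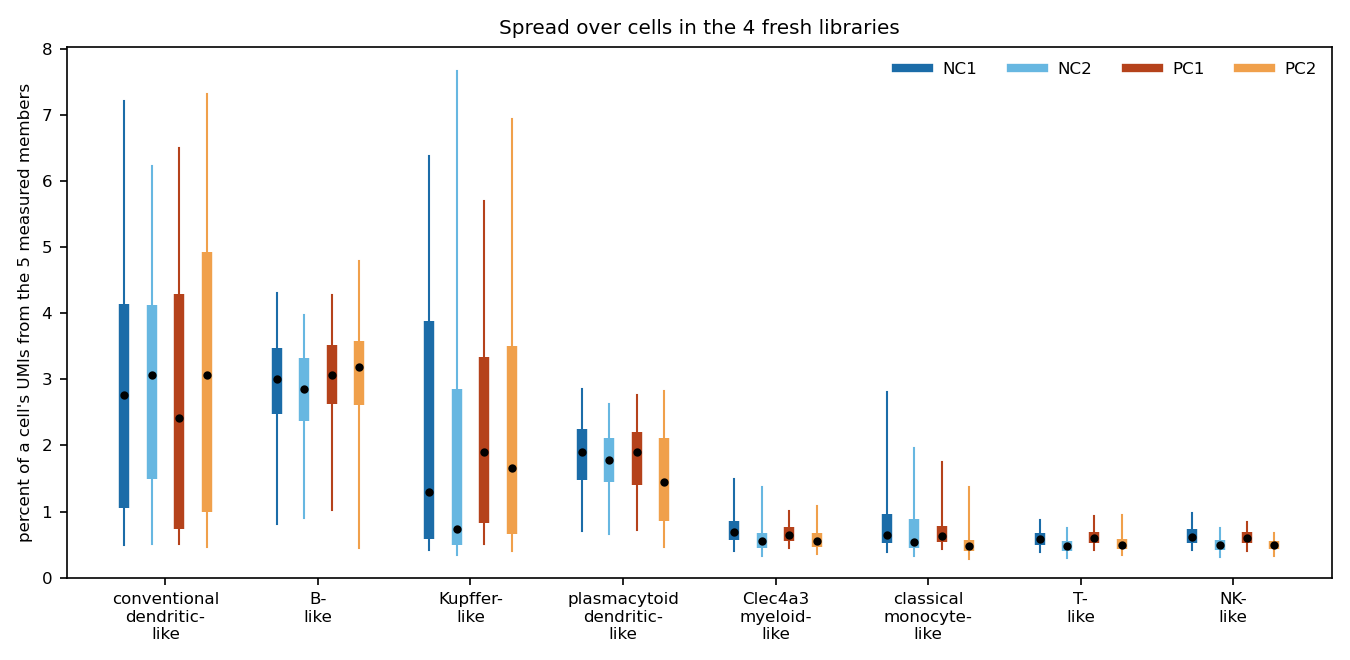
Percent of the UMIs of single cells from RT1-Ba, RT1-Bb, RT1-Da, RT1-Db1 and Cd74 in the 4 fresh libraries by marker-based group, with dots for the median cell, thick bars from the 25th to the 75th and thin lines from the 5th to the 95th percentile. Kupffer-like cells span the widest range relative to their median, and NK-like cells stay close to their median.

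The low levels in lymphocytes were set against free RNA. Barcodes with 1 to 100 UMIs, which are too few for a cell, had Cd74 at 5589 to 7261, RT1-Da at 2155 to 2965 and RT1-Ba at 988 to 1334 CPM. Relative to these barcodes of the same library, NK-like cells had a median level of 0.434 for Cd74 (range 0.373 to 0.515), 0.429 for RT1-Da, 0.454 for RT1-Ba, 0.461 for RT1-Db1 and 0.221 for RT1-Bb. The 13 genes of B cells, myeloid cells and plasmacytoid dendritic cells that were measured alongside had NK-like medians from 0.0241 (Ms4a1, a B cell surface protein at 0.446 to 6.80 CPM in these barcodes) to 0.618 (Tcf4, a transcription factor of plasmacytoid dendritic cells). Between them lay S100a9 (0.333), Ighm (0.348), C1qa (0.441), Siglech (0.442), Cd79b (0.447), Fcnb (0.505), Bst2 (0.532) and Fcgr3a (0.548), which NK cells also express. The 5 class II and invariant chain genes lay within this range. In T-like cells their medians were 0.529 for Cd74, 0.490 for RT1-Da, 0.622 for RT1-Ba, 0.583 for RT1-Db1 and 0.513 for RT1-Bb, and those of the 13 genes ran from 0.157 (Ms4a1) to 0.681 (Tcf4), with 0.405 for C1qa, 0.497 for Lst1 and 0.536 for Bst2. The ends of these ranges were set by Ms4a1 and Tcf4, so lying within them does not tell free RNA from expression. In T-like cells RT1-Ba (0.465 to 0.885 over libraries) and RT1-Db1 had medians above those of all 13 genes but Tcf4. T-like cells exceeded NK-like cells in 8 of 8 libraries for RT1-Ba, RT1-Bb, RT1-Db1 and Cd74, and in 7 of 8 for RT1-Da. The NK-like and T-like levels of the 5 genes were not read as expression, and the part of free RNA in them was not tested. Fresh Clec4a3 myeloid-like cells also lay below the near-empty barcodes, with Cd74 at 3910 to 5490 and RT1-Da at 1301 to 1720 CPM. So did RT1-Da in fresh classical monocyte-like cells, at 1164 to 2138. The part of free RNA in the levels and changes of both groups was not tested.

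At least 1 UMI of Cd74 was found in 98.5% to 99.7% of all cells, and in 99.8% to 100% of NK-like cells. RT1-Ba was found in 94.4% to 99.6% of B-like and 76.4% to 92.5% of NK-like cells. After each cell had been thinned to 1000 UMIs, RT1-Ba was found in 86.1% to 92.5% of B-like, 76.5% to 93.1% of conventional dendritic-like and 35.7% to 45.8% of NK-like cells. This left out 1 to 16 shallower B-like, 9 to 42 NK-like and 0 conventional dendritic-like cells per library. Detection of Cd74 in a cell therefore did not separate these groups at full depth, while the levels did. For RT1-Ba the detection ranges of B-like and NK-like cells did not overlap at full depth, although most NK-like cells held at least 1 UMI. The range of Cd74 relative to NK-like cells was 4.80- to 7.06-fold in conventional dendritic-like, 4.31- to 6.67-fold in B-like, 3.58- to 4.58-fold in Kupffer-like and 3.05- to 3.94-fold in plasmacytoid dendritic-like cells.

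The 1-gene gates allowed tests between lineages in fresh cells with edgeR, in which the animal was a block and p-values were adjusted by the Benjamini-Hochberg method over all genes tested. Cells gated on Clec4f, a Kupffer cell lectin, were compared with cells gated on Clec4a3. In the Clec4f gate Cd74 was at 12114, 8452, 10563 and 8091 CPM in fresh NC1, NC2, PC1 and PC2, and in the Clec4a3 gate at 5709, 6064, 6229 and 5935. All fresh Clec4f values of Cd74 lay above the Clec4a3 values. The log2 difference was 0.67 ± 0.13 (SE) for Cd74 (adjusted p = 0.00065), 0.81 ± 0.19 for RT1-Ba (adjusted p = 0.0033), 0.76 ± 0.17 for RT1-Da (adjusted p = 0.0023) and 0.88 ± 0.19 for RT1-Db1 (adjusted p = 0.0013). RT1-Bb, at 0.76 ± 0.29, did not pass (adjusted p = 0.11). So 4 of 5 members rose in the Clec4f gate, where 6.66% of all genes were called in this comparison. In the preserved libraries none of the 5 was called, and preserved Clec4f-gated cells of NC2 had Cd74 at 4753. Without NC1 the count was 1, as RT1-Ba (0.58, adjusted p = 0.11), RT1-Da (0.58, adjusted p = 0.074) and RT1-Db1 (0.65, adjusted p = 0.074) were no longer called. Without PC1 it was 2, as RT1-Ba (0.75, adjusted p = 0.065) and RT1-Da (0.70, adjusted p = 0.063) were lost, and without PC2 RT1-Bb was called as well (0.95, adjusted p = 0.0011). The Clec4f gate held 30 to 103 cells, with median depth of 2853 to 4375 UMIs per cell, and it was mixed. Its median cell had 0.509% to 0.784% of its UMIs from the 5 genes, where NK-like cells had 0.465% to 0.619%. Its summed Kupffer list was at 2810 to 11707 CPM, against 11173 to 16603 in Kupffer-like cells, and its NK list at 1167 to 4027 CPM. The part of this mixture in the gate differences was not tested.

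Between the Clec4a3 and Vcan gates, the latter a proteoglycan of classical monocytes, edgeR called 0 of 5 members (2 at an unadjusted p under 0.05, and 0 by DESeq2), where 9.21% of all genes were called. In preserved libraries the same comparison called 4, a count given without the share of all genes called there and not read further. Between the gates on Cd3e, a T cell receptor subunit, and Ncr1, an NK receptor, 1 of 5 members was called, where 12.4% of all genes were called. This was Cd74, at 4274, 3419, 4162 and 5614 CPM in fresh Cd3e-gated cells and 4328, 3009, 4086 and 2626 in Ncr1-gated cells of NC1, NC2, PC1 and PC2 (0.39 ± 0.13, adjusted p = 0.044). The values overlapped between the gates, and the gap was wide in PC2 alone. Without PC2 the difference was 0.12 (adjusted p = 0.335), and without NC2 it was 0.44 (adjusted p = 0.067).

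RT1-Bb, the beta chain of RT1-B, stood apart in 1 animal, PC2. Over all cells RT1-Bb was at 96.0, 168 and 187 CPM in fresh NC1, NC2 and PC1 and at 884 in PC2, and in the preserved libraries at 120, 59.3, 73.0 and 999. PC2 exceeded the highest of the other animals 4.73-fold in fresh and 8.32-fold in preserved cells. In each of the 8 groups PC2 was above every other animal, by 3.50- to 12.0-fold in fresh and 5.87- to 29.1-fold in preserved cells. In conventional dendritic-like cells, for example, RT1-Bb was at 387, 832 and 826 in fresh NC1, NC2 and PC1 and at 3339 in PC2. In B-like cells it was at 212, 390 and 416 and at 2069 in PC2.

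The partner chain RT1-Ba did not share this pattern, with 1347, 1206, 1457 and 1221 CPM over all fresh cells of NC1, NC2, PC1 and PC2. Relative to RT1-Ba, RT1-Bb was at 7.13%, 13.9% and 12.8% in fresh NC1, NC2 and PC1 and at 72.4% in PC2. After preservation the values were 7.35%, 4.76% and 4.53%, and 76.3% in PC2. Over groups PC2 ranged from 64.5% to 88.1% and the other animals from 1.99% to 19.2%, with no overlap. The other animals also did not keep their RT1-Bb level after preservation. It fell by 1.50 on the log2 scale in NC2 and by 1.36 in PC1, and NC1 and PC2 differed by 0.32 and 0.18. In NC2 the difference was negative in all 8 groups, from -1.52 to -2.01.

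**Figure D3:**
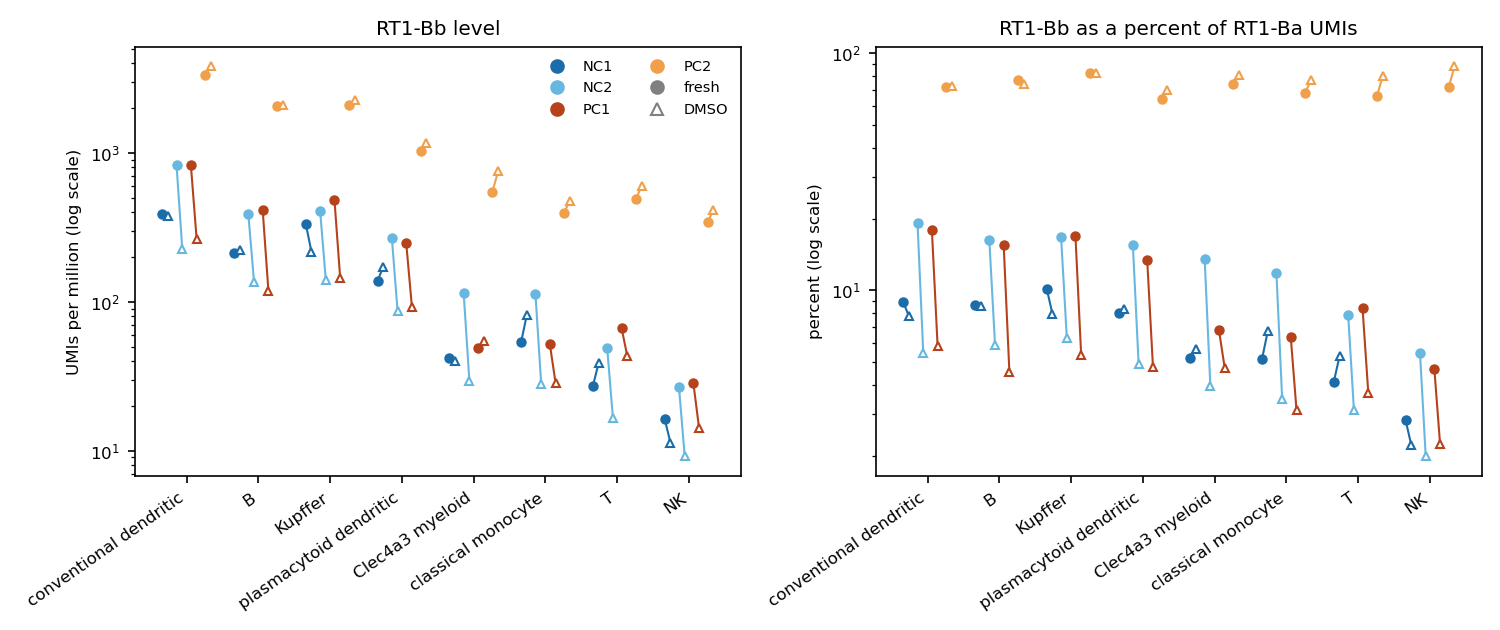
RT1-Bb in CPM (left) and RT1-Bb as percent of the RT1-Ba count (right), both on log scales, in the marker-based groups. Lines join the fresh and the DMSO library of an animal. Over the groups PC2 lies at 64.5% to 88.1% and the other animals at 1.99% to 19.2%.

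All reads were aligned to 1 reference genome, and class II genes vary in sequence between rat haplotypes. The part of such sequence differences in the RT1-Bb counts was not tested.

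Preservation was compared within animals, since fresh and preserved cells came from the same liver. The day of processing differed with it, and the 2 cannot be told apart. Over all cells RT1-Da was at 2525, 2197, 2516 and 2195 CPM in fresh NC1, NC2, PC1 and PC2 and at 3127, 2522, 2989 and 2428 after preservation. It was higher after preservation in 4 of 4 animals, and the values of different animals overlapped. RT1-Da rose by a log2 difference of 0.28 ± 0.05 (edgeR, adjusted p = 0.011). This was 1 of 6 members tested, where 8.25% of all genes were called. In sums over all cells, more cells of a type and more RNA per cell cannot be told apart, and the shares of cells moved with preservation. NK-like cells were a smaller share after it in NC1 (18.2% to 12.3%), NC2 (20.9% to 17.3%) and PC1 (18.4% to 17.0%) and a larger one in PC2 (19.8% to 22.2%). Plasmacytoid dendritic-like and B-like cells were a larger share in 3 of 4 animals each, and T-like cells in 4 of 4, with 5.69% in both libraries of PC1. The part of these shifts in the RT1-Da difference was not tested.

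The other members did not pass over all cells. RT1-Ba was at 0.20 ± 0.05 (adjusted p = 0.0501), RT1-Db1 at 0.17 ± 0.05 (adjusted p = 0.055), Cd74 at 0.13 ± 0.04 (adjusted p = 0.081) and RT1-Bb at -0.52 ± 0.28 (adjusted p = 0.27). The per-animal log2 differences from CPM were 0.28, 0.05, 0.14 and 0.10 for RT1-Ba, 0.17, 0.02, 0.18 and 0.11 for RT1-Db1 and 0.03, 0.09, 0.08 and 0.10 for Cd74 in NC1, NC2, PC1 and PC2. Their means are smaller than the fitted values, which rest on another scaling (TMM). All 4 animals had the same sign in RT1-Ba, RT1-Da, RT1-Db1 and Cd74. RT1-Bb passed without NC1 (-0.82, adjusted p = 0.046). The RT1-Da call was lost without NC2 (0.28, adjusted p = 0.098) and without PC1 (0.26, adjusted p = 0.064), and its adjusted p lay between 0.000295 and 0.369 over the alternatives.

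Within the marker-based groups 1 of 40 pairs of member and group was called, a share near the 3.17% of all pairs of gene and group called. The called pair was RT1-Da in plasmacytoid dendritic-like cells, at 3302, 3313, 3441 and 3104 CPM in fresh and 4343, 3756, 4020 and 3372 in preserved NC1, NC2, PC1 and PC2 (log2 difference 0.25 ± 0.05, adjusted p = 0.0067). The preserved libraries of NC1, NC2 and PC1 lay above all fresh ones, and PC2 lay within the fresh range. The call was kept without each animal in turn. RT1-Da was also higher after preservation in 4 of 4 animals in conventional dendritic-like cells, with differences of 0.16, 0.15, 0.11 and 0.16, without passing the test. In B-like cells the differences were -0.05, 0.12, 0.04 and 0.01, and in Kupffer-like cells none was above 0.14.

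Within the 1-gene gates 5 of 35 pairs were called, all of them higher after preservation, where 2.36% of all pairs were called. In Siglech-gated cells RT1-Da was at 2754, 2819, 2728 and 2606 in fresh and 3809, 3340, 3503 and 3101 in preserved NC1, NC2, PC1 and PC2, with no overlap (0.37 ± 0.06, adjusted p = 0.0028). In the same gate RT1-Ba was at 1453, 1512, 1458 and 1421 fresh and 1864, 1633, 1762 and 1683 preserved, again with no overlap (0.29 ± 0.06, adjusted p = 0.016). The median Siglech-gated cell had 0.934%, 0.773%, 0.865% and 0.652% of its UMIs from the 5 genes in fresh NC1, NC2, PC1 and PC2 and 1.402%, 1.372%, 1.16% and 0.785% after preservation. In plasmacytoid dendritic-like cells the same medians were 1.90%, 1.78%, 1.90% and 1.45% fresh and 2.04%, 1.74%, 1.88% and 1.73% preserved. These medians cannot tell a change in the make-up of the Siglech gate from a change of level in its cells. The part of either in the calls was not tested. The other calls were RT1-Da and Cd74 in the Clec4a3 gate (0.42 ± 0.08, adjusted p = 0.011, and 0.28 ± 0.06, adjusted p = 0.014) and Cd74 in the Cd79a gate (0.26 ± 0.06, adjusted p = 0.030). In Clec4a3 myeloid-like cells of NC1, NC2, PC1 and PC2, RT1-Da changed by -0.13, -0.09, 0.76 and 0.37. Cd74 changed there by -0.20, -0.09, 0.44 and 0.38, and neither gene was called. The Clec4a3 gate held 131, 161, 353 and 391 cells fresh and 167, 82, 169 and 258 preserved in these animals. The part of this shift in the calls was not tested. Cd74 in fresh Cd79a-gated cells was at 13338, 13409, 13308 and 7498, low in PC2, and at 13430, 15638, 13476 and 11099 preserved. The median Cd79a-gated cell of PC2 had 0.631% of its UMIs from the 5 genes fresh and 1.01% preserved, against 2.72% to 2.88% in the other animals. Without PC1 none of the 5 was called (adjusted p = 0.066 and 0.15 for RT1-Da and RT1-Ba in the Siglech gate, 0.20 and 0.19 for RT1-Da and Cd74 in the Clec4a3 gate, 0.10 for Cd74 in the Cd79a gate). Without NC2 the calls of RT1-Ba in the Siglech gate (adjusted p = 0.072) and Cd74 in the Cd79a gate (adjusted p = 0.085) were lost, and without PC2 that of Cd74 in the Cd79a gate (0.15, adjusted p = 0.17).

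**Figure D4:**
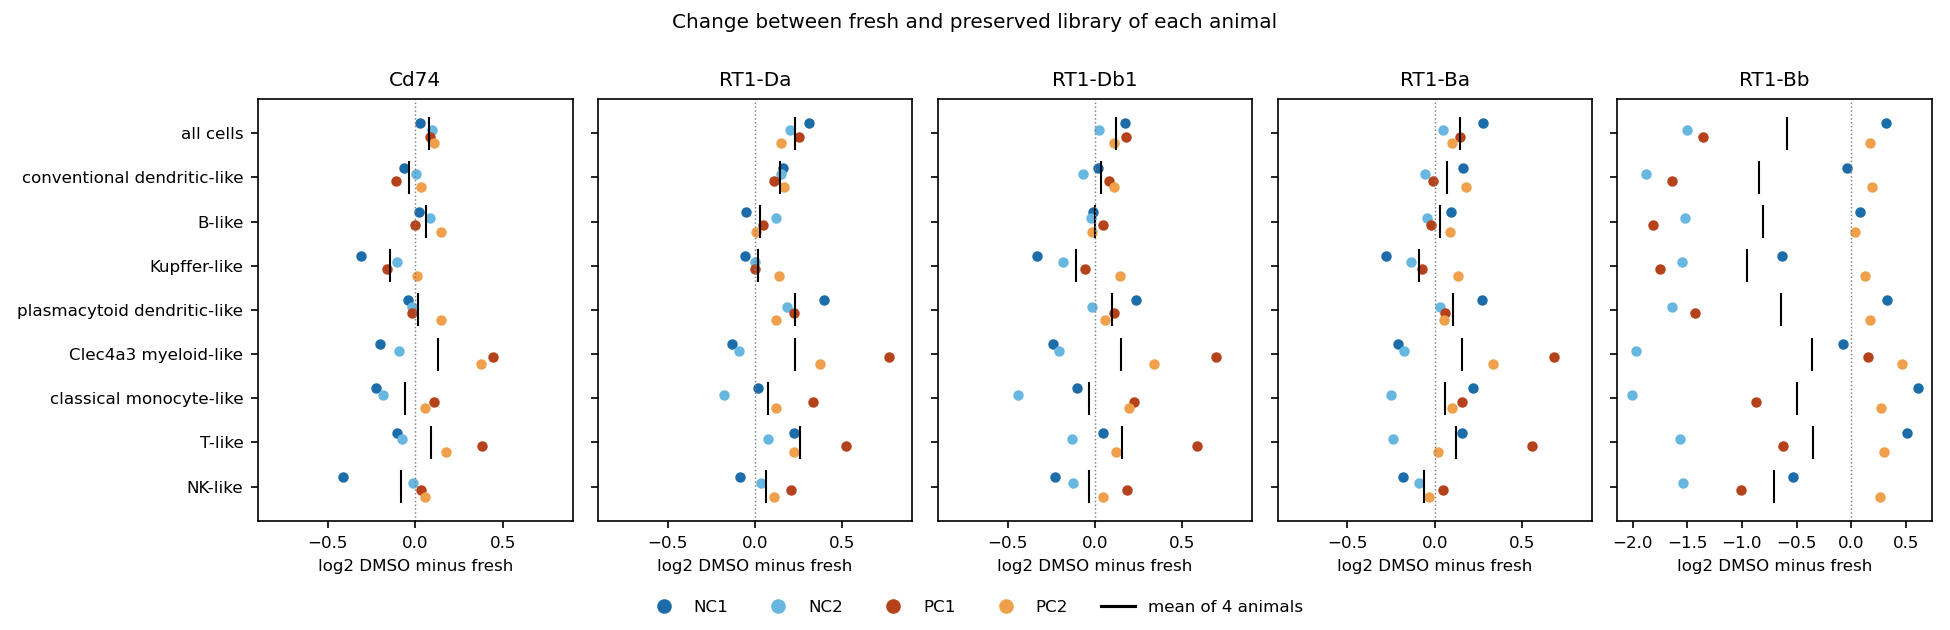
Log2 difference of CPM, DMSO minus fresh library of the same animal, for RT1-Ba, RT1-Bb, RT1-Da, RT1-Db1 and Cd74 over all cells and in the marker-based groups, with 1 point per animal and a black line at the mean of the 4 animals. Over all cells RT1-Da lies at 0.15 to 0.31, and RT1-Bb falls in NC2 and PC1.

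The diets were compared with 2 animals each, separately in fresh and preserved cells, and the preserved libraries come from the same animals. Over all fresh cells edgeR called 0 of 6 members (1 at an unadjusted p under 0.05, and 0 by DESeq2), where 1.18% of all genes were called. Over all preserved cells it also called 0 of 6 (1 at an unadjusted p under 0.05, and 0 by DESeq2), where 0.642% were called. In fresh cells the CDAA minus CSAA log2 difference was -0.07 ± 0.17 for Cd74, 0.09 ± 0.13 for RT1-Ba, 0.02 ± 0.12 for RT1-Da and 0.16 ± 0.10 for RT1-Db1. For RT1-Bb it was 2.04 ± 0.71 in fresh (adjusted p = 0.20) and 2.53 ± 1.04 in preserved cells (adjusted p = 0.34), and without PC2 it was 0.52 and -0.27. Without PC1, with PC2 as the lone CDAA animal, the fresh RT1-Bb difference passed (2.76, adjusted p = 0.042).

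Within the 1-gene gates edgeR called 0 of 35 pairs in fresh cells (10 at an unadjusted p under 0.05, and 1 by DESeq2), where 0.691% of all pairs were called, and 0 of 35 in preserved cells (9 at an unadjusted p under 0.05, and 0 by DESeq2), where 0.778% were called. Within the marker-based groups it called 1 of 40 in fresh cells, a share near the 1.68% of all pairs called. In preserved cells it called 0 of 40 (12 at an unadjusted p under 0.05, and 0 by DESeq2), where 1.75% of all pairs were called. The called pair was RT1-Da in classical monocyte-like cells, at 2138 and 1913 CPM in fresh NC1 and NC2 and at 1453 and 1164 in fresh PC1 and PC2, with no overlap (-0.63 ± 0.14, adjusted p = 0.046). Preserved cells of this group were at 2164, 1692, 1831 and 1265, where the diets overlapped. The call was lost without NC1 (-0.56, adjusted p = 0.063), PC1 (-0.79, adjusted p = 0.11) or PC2 (-0.47, adjusted p = 0.42). In these fresh cells the B list summed to 660 to 758 CPM on CSAA and 272 to 473 on CDAA, and the plasmacytoid dendritic list to 1203 to 1474 and 901 to 939. The part of such other-lineage RNA in the RT1-Da difference was not tested.

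Whether the change with preservation differed between diets was tested as an interaction. It called 0 of 35 pairs in the gates (3 at an unadjusted p under 0.05, and 0 by DESeq2), where 0.0776% of all pairs were called. In the marker-based groups it called 0 of 40 (9 at an unadjusted p under 0.05, and 0 by DESeq2), where 0.0317% were called.

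Kupffer-like cells were examined for the genes that act with the class II molecules, a group chosen after its values had been seen. Pathway genes were also called higher on CDAA elsewhere, 2 of 16 in plasmacytoid dendritic-like, 2 of 15 in T-like and 1 of 16 in NK-like fresh cells, where 2.70%, 0.915% and 0.896% of all genes were called. Lgmn was called in 4 of the 8 groups in fresh and 5 of 8 in preserved cells. Of the class II pathway list, 13 genes were tested in fresh Kupffer-like cells, and 4 rose on CDAA and none fell, where 4.23% of all genes were called. Their median log2 difference was 0.40, beside -0.01 over all genes. Ctsb, the lysosomal protease cathepsin B, was at 772 and 774 CPM in fresh NC1 and NC2 and at 1881 and 2197 in PC1 and PC2, with no overlap (1.35 ± 0.16, adjusted p = 0.0010). In preserved cells Ctsb was at 1046, 714, 2201 and 2473 (1.31, adjusted p = 0.0020).

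Lgmn, legumain, which starts the degradation of Cd74, was at 326, 486, 844 and 1159 CPM in fresh NC1, NC2, PC1 and PC2 and at 390, 534, 905 and 1115 in the preserved libraries (fresh 1.25 ± 0.23, adjusted p = 0.016). Ctsl, cathepsin L, which cleaves Cd74, was at 223, 191, 373 and 614 fresh (1.21, adjusted p = 0.020). Cd83, which stabilises class II molecules at the surface, was at 114, 94.6, 199 and 183 fresh (0.82, adjusted p = 0.036). Both CDAA animals lay above both CSAA animals in each of these genes. In preserved Kupffer-like cells 3 of 12 pathway genes were called, Ctsb, Lgmn and Ctsl, where 5.29% of all genes were called. Of the members themselves, Cd74 (-0.10), RT1-Ba (-0.14), RT1-Da (-0.11) and RT1-Db1 (-0.15) gave small fresh differences in these cells, none called. RT1-Bb went the other way and was not called either. It was at 336 to 486 CPM in fresh NC1, NC2 and PC1 and at 2088 in PC2.

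Of the class I list, 3 of 14 genes tested were lower on CDAA in fresh Kupffer-like cells and 11 did not pass, beside the 4.23% of all genes called. The list median was -0.50, beside -0.01 over all genes. RT1-A2, a classical class I heavy chain, was at 4118, 3646, 1770 and 1061 CPM in fresh NC1, NC2, PC1 and PC2 and at 3814, 3740, 1869 and 1279 in preserved libraries (fresh -1.50 ± 0.22, adjusted p = 0.0053). RT1-S3 was at 336, 317, 174 and 176 fresh (-0.95, adjusted p = 0.011), and RT1-CE5 at 1153, 1490, 826 and 601 fresh (-0.94, adjusted p = 0.031). The diets did not overlap in any of them. The same 3 of 14 were lower on CDAA in preserved cells, beside 5.29% of all genes, with a list median of -0.32. For RT1-A2 the lower level was not particular to Kupffer-like cells. RT1-A2 was lower on CDAA in all 8 groups, by -1.50 to -0.36 fresh and -1.35 to -0.24 preserved. RT1-CE5 was lower in all 8 preserved groups (-1.25 to -0.38), and fresh it ran from -0.94 to 0.11. RT1-S3 ran from -0.95 to 0.06 fresh and from -0.69 to 0.03 preserved. Both RT1-CE5 and RT1-S3 were called in 1 of 8 groups, fresh and preserved. In fresh plasmacytoid dendritic-like cells edgeR also called RT1-A2 (-0.76, adjusted p = 0.0496), where 2.70% of all genes were called. Class I genes are near-identical copies that can share reads, so the split between them is uncertain. The part of sequence differences between the animals of the diets in these counts was not tested.

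**Figure D5:**
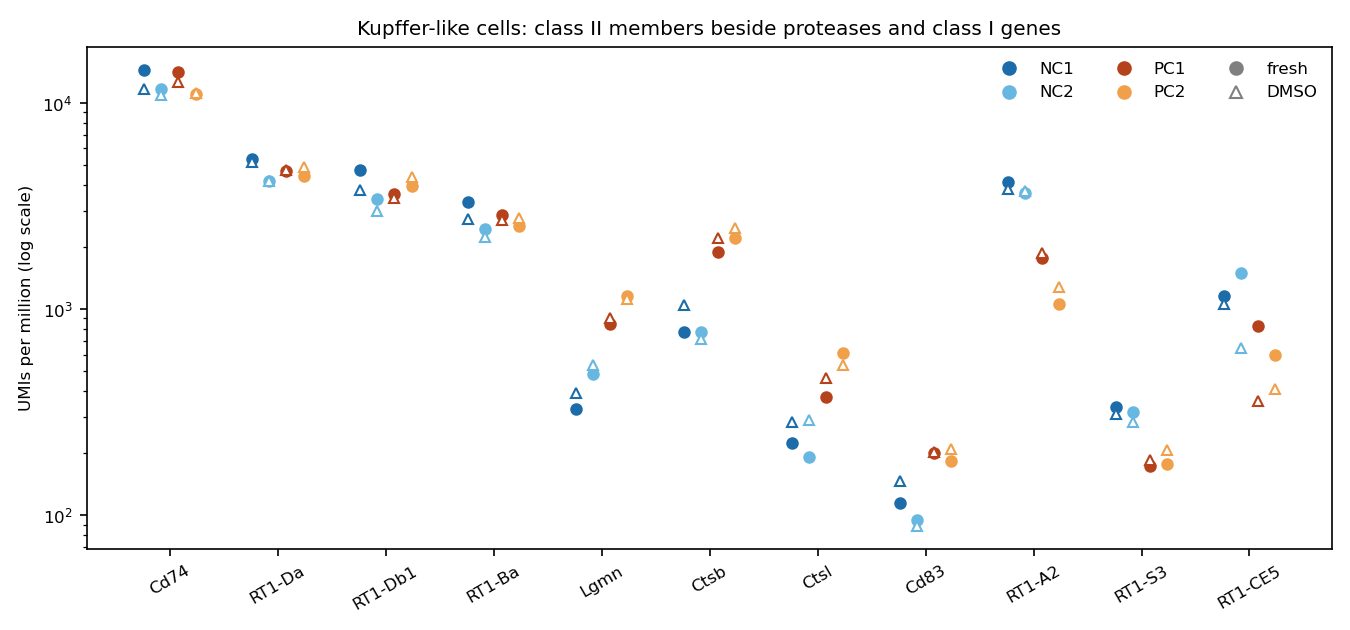
Levels in Kupffer-like cells in CPM (log scale) of Cd74, RT1-Da, RT1-Db1 and RT1-Ba, of Lgmn, Ctsb, Ctsl and Cd83, and of the class I genes RT1-A2, RT1-S3 and RT1-CE5, with 1 point per library, colour for the animal, filled circles for fresh and open triangles for DMSO libraries. The CDAA animals PC1 and PC2 lie above NC1 and NC2 in Lgmn, Ctsb, Ctsl and Cd83 and below them in RT1-A2 and RT1-S3. The diets overlap in Cd74, RT1-Da, RT1-Db1 and RT1-Ba, and RT1-Bb is not shown.

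Kupffer-like cells of the 2 diets also differed in depth. Their median was 4731 to 6084 UMIs per cell on CSAA (63 to 92 cells per library) and 10012 to 13599 on CDAA (101 to 136 cells). The summed plasmacytoid dendritic list was at 1592 to 2165 CPM on CSAA and 1002 to 1079 on CDAA, the T list at 423 to 523 and 94.8 to 258, and the B list at 668 to 1231 and 218 to 667. The Kupffer list overlapped, at 11467 to 16603 and 11173 to 14660. The part of these differences in the gene changes was not tested. Without the top 5% of barcodes by UMIs Ctsb and RT1-A2 were still called in fresh and preserved cells, whereas Lgmn (0.68, adjusted p = 0.24), Ctsl (0.77, adjusted p = 0.095), Cd83 (0.73, adjusted p = 0.16) and RT1-CE5 (-0.63, adjusted p = 0.16) were not called in fresh cells. Without NC2 the fresh calls of Ctsl (1.14, adjusted p = 0.057), Cd83 (0.73, adjusted p = 0.18) and RT1-CE5 (-0.70, adjusted p = 0.12) were lost, and without NC1 that of Cd83 (0.94, adjusted p = 0.058). In preserved cells Lgmn was not called without NC1 (0.81, adjusted p = 0.092), and Ctsl without NC1 (0.68, adjusted p = 0.17), NC2 (0.75, adjusted p = 0.10) or PC2 (0.67, adjusted p = 0.062). The preserved RT1-S3 call was lost when any 1 animal was left out (adjusted p 0.068 to 0.15). Ctsb and RT1-A2 were called without each animal.

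Over all cells 2 of 17 class II pathway genes, a share near the 8.25% of all genes called, were higher after preservation, Ctsl (0.43, adjusted p = 0.016) and Ifi30, a lysosomal thiol reductase that unfolds antigens (0.31, adjusted p = 0.014). The list median was -0.00167 on the log2 scale, beside -0.00328 over all genes. Within the marker-based groups 3.17% of all pairs of gene and group were called. There edgeR called Ctss, cathepsin S, lower in 3 of 8 groups after preservation. These were Kupffer-like (-0.95, adjusted p = 0.042), Clec4a3 myeloid-like (-0.78, adjusted p = 0.023) and B-like cells (-1.47, adjusted p = 0.016). Ifi30 was called higher in 4 of 8 groups, Ctsl in 2 of 8 and Ctsb in 1 of 8, and Lgmn lower in 1 of 8. Of 18 class I genes 2 fell over all cells, again near the 8.25% called over all genes, RT1-CE1 (-1.47, adjusted p = 0.037) and RT1-CE5 (-0.73, adjusted p = 0.025). Within groups RT1-CE5 was called lower in 7 of 8, RT1-CE1 in 1 of 3 and RT1-T24-4 in 1 of 8, and RT1-A2 higher in 1 of 8. By diet, Lgmn was called higher on CDAA over all fresh cells (1.23, adjusted p = 0.044), the only 1 of 17 pathway genes, where 1.18% of all genes were called. It was also called over all preserved cells (1.25, adjusted p = 0.028), where 0.642% of all genes were called.

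Ciita, the coactivator of the class II genes, had its highest fresh mean in conventional dendritic-like cells, as these genes did, but its order differed below them. In conventional dendritic-like cells Ciita was at 55.5, 47.5, 49.6 and 45.0 CPM in fresh NC1, NC2, PC1 and PC2. The fresh mean was 49.4 ± 4.50 there, 34.2 ± 4.89 in B-like, 14.6 ± 3.01 in plasmacytoid dendritic-like, 12.6 ± 5.69 in Kupffer-like and 4.34 ± 1.93 in NK-like cells. Kupffer-like cells had less Ciita than B-like cells, with RT1-Db1 above that of B-like cells in 8 of 8 libraries. Their Ciita mean was also no higher than that of plasmacytoid dendritic-like cells, with overlapping SDs. Each of the 5 abundant genes was higher in Kupffer-like than in plasmacytoid dendritic-like cells in 8 of 8 libraries. RT1-DOa and RT1-DOb, chains of the DM inhibitor DO, had their highest fresh means in B-like cells, at 224 ± 24.2 and 55.5 ± 4.47, followed by conventional dendritic-like cells at 167 ± 31.7 and 34.6 ± 12.0.

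Over the 28 profiles of fresh library and gate, the genes most like Cd74 by Pearson r of log2(CPM + 10), out of 3659 genes, were Fgd2 (0.833), Plekho1 (0.827), RT1-DOa (0.777), Fam3c (0.763) and Mef2c (0.755). Among the members r was 0.975 for RT1-Da, 0.948 for RT1-Ba, 0.903 for RT1-Db1 and 0.354 for RT1-Bb. Over the 32 profiles of marker-based groups the first 5 were Plekho1 (0.898), Fgd2 (0.879), Ciita (0.849), Csrp1 (0.843) and Ly86 (0.840), and RT1-Bb was at 0.631. The profiles share libraries and animals, so these values are descriptions. They pool the animals, of which PC2 stood apart in RT1-Bb, and the part of PC2 in the RT1-Bb values was not tested. Within libraries RT1-Bb, like Cd74, was highest in conventional dendritic-like and lowest in NK-like cells in 8 of 8.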

How the data were processed

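UMIs were counted per gene and barcode in 8 libraries of 4 rats. The authors deposited raw UMI counts for 737280 barcodes per library, made with Cell Ranger 2.1.1, bcl2fastq 2.17.1.14 and STAR (submitters' processing notes) on the rat genome Rnor6.0 with Ensembl annotation. No doublet caller was run. Here barcodes with at least 500 UMIs were kept. A gate asked for 1 UMI of its gene. Marker-based groups, added after the data had been seen, asked for a mean score of at least 0.5 on counts scaled to 10000 UMIs, a lead of 0.25 over the next list and 3 detected markers. The genes and lists were chosen with earlier results of these data known.

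UMIs were summed per library and group (at least 20 cells) and tested in R 4.3.3 with edgeR 4.0.16 (quasi-likelihood F test, TMM, filterByExpr, Benjamini-Hochberg adjustment over all genes tested, called at an adjusted p under 0.05), with the animal as a block in comparisons of preservation and gates. In the diet fits p-values measure the spread between animals of a diet, and in the blocked fits the spread of differences within animals. All gates shared 1 estimate of spread in the comparison of gates. DESeq2 1.42.0 was an alternative, beside those of the closing section. The code, in Python 3.11.15 (pandas 2.3.3, numpy 2.4.6, scipy 1.17.1, matplotlib 3.10.9), was tested on simulated data. Shares of cells cover counting error only. The 2 libraries of a rat were paired through their titles, and their deviations correlated at r = 0.645 (NC1), 0.848 (NC2), 0.738 (PC1) and 0.829 (PC2) over 6127 genes, above every other pairing (0.203 to 0.478 at most). Named genes were all members, at most 4 called genes per list with the largest change, and the 5 genes most like Cd74. Only libraries of rat liver immune cells were used.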

Additional observations from a re-analysis of the deposited data

Results flagged for a closer look

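In Clec4a3 myeloid-like cells both CSAA animals had lower and both CDAA animals higher levels after preservation in each of the 5 abundant genes. The result was picked for this split of signs from all pairs of these genes with all cells or a marker-based group. How often other genes split in this way in Clec4a3 myeloid-like cells was not tested. The 5 genes were counted in the same cells and animals, so their splits are not independent. The CDAA minus CSAA difference of the mean log2 change was 0.70 for RT1-Ba (means -0.19 and 0.51), 1.33 for RT1-Bb, 0.68 for RT1-Da, 0.74 for RT1-Db1 and 0.56 for Cd74. By animal, in the order NC1, NC2, PC1 and PC2, the change of Cd74 was -0.20, -0.09, 0.44 and 0.38, and that of RT1-Db1 was -0.24, -0.21, 0.69 and 0.34. The interaction in edgeR did not pass for any of them, with an adjusted p of 0.10 for RT1-Ba, RT1-Da and Cd74, 0.080 for RT1-Db1 and 0.17 for RT1-Bb. The part of free RNA in these changes was not tested.

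The same split of signs by diet was seen for RT1-Da in Kupffer-like cells (0.10, interaction adjusted p = 0.98), RT1-Db1 (0.48, adjusted p = 0.78) and Cd74 (0.29, adjusted p = 0.86) in classical monocyte-like cells, RT1-Db1 (0.29, adjusted p = 0.83) and Cd74 (0.25, adjusted p = 0.86) in NK-like cells and Cd74 in T-like cells (0.37, adjusted p = 0.93). None passed the interaction test of edgeR.

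Barcodes with 1 to 100 UMIs, which were not taken as cells and entered no test, held the 5 abundant genes above their level in NK-like cells. The median ratio of the NK-like to the near-empty level was 0.454 for RT1-Ba, 0.221 for RT1-Bb, 0.429 for RT1-Da, 0.461 for RT1-Db1 and 0.434 for Cd74.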

How the results depend on the processing

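Of the results for single genes, 302 kept direction and side of the threshold under an alternative, 81 were no longer past it, 15 came past it and 1 reversed. The reversed one was RT1-Bb by diet over all preserved cells without PC2 (-0.27, adjusted p = 0.909), and leaving out any 1 animal there gave -0.27 to 3.42. Counts of members called changed as follows, and the cause was not tested. The share of all genes called is not given for the alternatives, including those without 1 animal. Their counts therefore describe how the calls moved and are not results about the members. For preservation over all cells the count of 1 became 0 with a 2-fold minimum, 2 with DESeq2 size factors, 3 with the DESeq2 test, 2 with at least 1000 UMIs, 4 without the filter, 2 under 20% mitochondrial UMIs and 4 without the top 5% of barcodes by UMIs. Within gates the 5 became 0 with a 2-fold minimum, 2 with DESeq2, 15 without the filter, 1 with 2 UMIs of the gate gene, 8 under 20% mitochondrial UMIs and 1 with marker groups in place of gates. Within marker groups the 1 became 0 with a 2-fold minimum, 2 with DESeq2 size factors, 9 without the filter, 2 with the gate gene required and 2 without the top 5%.

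For diet in fresh cells the 0 in gates became 1 with DESeq2, 9 without the filter, 3 with 2 UMIs of the gate gene and 1 with marker groups. The 1 in marker groups became 0 with a 2-fold minimum, DESeq2, the gate gene required or without the top 5%, and 10 without the filter. For diet in preserved cells the 0 in gates became 1 with at least 1000 UMIs, 6 without the filter, 1 under 20% mitochondrial UMIs and 1 without the top 5%, and the 0 in marker groups became 10 without the filter. The interaction in marker groups became 6 without the filter and 3 with the gate gene required. Between the Clec4f and Clec4a3 gates the 4 became 0 with a 2-fold minimum and 0 in preserved libraries. Between the Clec4a3 and Vcan gates the 0 became 3 without the filter and 4 in preserved libraries. Between the Cd3e and Ncr1 gates the 1 became 0 with a 2-fold minimum, DESeq2, 2 UMIs of the gate gene, preserved libraries or without the top 5%, and 5 without the filter. Leaving RT1-Bb out changed no count.

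Without the pairing by animal (no replicate block) the counts were 0 for preservation over all cells, in gates and in marker groups, 1 between the Clec4f and Clec4a3 gates and 0 between the Cd3e and Ncr1 gates, and RT1-Da over all cells was at 0.28 (adjusted p = 0.369).

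Leaving out 1 animal gave 0 to 2 calls for preservation over all cells (2 without NC1, 0 without NC2 or PC1), 0 to 11 in gates (11 without NC1, 0 without PC1, 8 without PC2) and 1 to 8 in marker groups (8 without NC1, 5 without PC2). For diet in fresh cells it gave 0 to 1 over all cells (1 without PC1), 0 to 16 in gates (6 without NC1, 8 without NC2, 16 without PC1) and 0 to 9 in marker groups (6 without NC1, 7 without NC2, 9 without PC1, 0 without PC2). For diet in preserved cells it gave 0 over all cells, 0 to 7 in gates (6 without NC1, 5 without NC2, 7 without PC1) and 2 to 8 in marker groups (7 without NC1, 7 without NC2, 8 without PC1, 2 without PC2). For the interaction it gave 0 to 7 in gates (1 without NC1, 2 without NC2, 7 without PC1) and 0 to 5 in marker groups (5 without NC1, 4 without NC2, 2 without PC1). It gave 1 to 5 between the Clec4f and Clec4a3 gates (1 without NC1, 2 without PC1), 0 between the Clec4a3 and Vcan gates and 0 to 2 between the Cd3e and Ncr1 gates (2 without NC1, 0 without NC2 or PC2). In the diet comparisons the lone animal was then assumed to vary like the others. The alternatives with marker groups, including a stricter score, were chosen after seeing the data. The Flt3 gate, with 2 to 9 cells per library, was not run. Low counts limited RT1-DMa and RT1-DMb, for which no order of groups was read. Few cells limited groups such as conventional dendritic-like cells, with 38 to 72 cells.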
